A study of Homo sapiens with 10 samples.

Results

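Liver cancer cells treated with a CDK4/6 inhibitor and an XPO1 inhibitor together were compared with vehicle-treated cells of the same line, across all genes. The comparison rests on 4 of the 10 libraries of the study: the combination and the control library of PLC and of 97H, human liver cancer cell lines named here as in the labels. Control cells received vehicle, combination cells received both inhibitors, and the labels name no genetic change, clone or transgene in either line. The remaining libraries are the CDK4/6 inhibitor alone and the XPO1 inhibitor alone in both lines, which served to estimate the spread and to set values side by side, and the control and CDK4/6 inhibitor libraries of a further line, Huh7. The XPO1 inhibitor is KPT330 (selinexor) per the sample titles, and the CDK4/6 inhibitor is not named. The sources used here give neither doses nor treatment times. Each line and treatment has 1 library, so n = 2 lines throughout. A p-value here sets the difference against how unlike the 2 lines were over the treatments. The spread between repeated cultures of a line was not measured.

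CDK4 and CDK6 are the cyclin D-dependent kinases that phosphorylate the retinoblastoma protein RB1. Unphosphorylated RB1 holds back E2F transcription factors, and the release of E2F turns on genes for nucleotide supply, origin licensing and the replication fork. A later wave of genes, for mitotic kinases, the centromere and the spindle, is driven by MYBL2 and FOXM1 through promoter elements called CHR and CCAAT boxes, and in resting cells the DREAM complex represses both waves. XPO1, also called CRM1, is the exportin that carries proteins with a leucine-rich export signal, among them p53, p21 and inhibitors of NF-kappaB, from the nucleus to the cytoplasm. Cells that have left the cycle for good, as in senescence, often lose lamin B1, gain p21, enlarge their lysosomes and secrete matrix proteins and cytokines.

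With the combination, genes of DNA replication and mitosis fell in both lines, among them 12 of 26 genes of mitotic entry and 8 of 41 of the replication fork. A smaller and more mixed group rose, which includes the myosin gene MYL9, the matrix genes CYR61 and CTGF, histone genes and the kinase inhibitor gene CDKN1A. Of the 10477 genes averaging 1 FPKM or more, 83 changed, or 0.792%; FPKM count fragments per kilobase of transcript, relative to all mapped fragments. A gene was counted as changed at a Benjamini-Hochberg adjusted p under 0.05 in limma, fitted to log2(FPKM + 1) with cell line as a block. There were 51 genes that fell (0.487%) and 32 that rose (0.305%). These shares of all tested genes are the background for the calls in each list below. The lists were written with earlier results of these data known, so a list share above this background is a description and not independent evidence. All log2 differences below are combination minus control on this scale, which understates the fold change of genes at low FPKM. The standard errors (SE) of the genes that fell ran from 0.26 to 0.50 and of those that rose from 0.25 to 0.51, with adjusted p-values from 0.0176 to 0.0482 in both directions. Each of the 83 moved the same way and by at least 1 log2 unit in both lines. The number of calls rests on single libraries: it was 0 without the control or without the combination library of PLC and 2 without the 97H combination library, but 166 without the 97H control.

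Over all genes the responses of the lines were only weakly alike. Among all tested genes, 209 were lower by at least 1 log2 unit in both lines (1.99%) and 188 were higher (1.79%), and these groups hold all of the genes that changed. By a difference of any size, 24.2% of all tested genes were lower in both lines, 29.6% higher in both and 44.8% of opposite sign, which is the background for the list counts below. Taking each line by itself, 1244 genes were higher and 782 lower by at least 1 log2 unit in PLC, and 804 and 515 in 97H. These counts include the genes shared by both lines. Across the 10477 genes, the difference in PLC and the difference in 97H had a Spearman rho of 0.197, given as a description since genes are not independent replicates. The lines also leaned opposite ways on base composition: the rho of the difference with the GC content of the transcript was -0.285 in PLC and 0.268 in 97H. With this trend and that on transcript length removed from each library, all 83 genes still passed and kept 0.904 to 1.05 times their log2 difference, among 463 genes in all (193 up, 270 down).

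**Figure D1:**
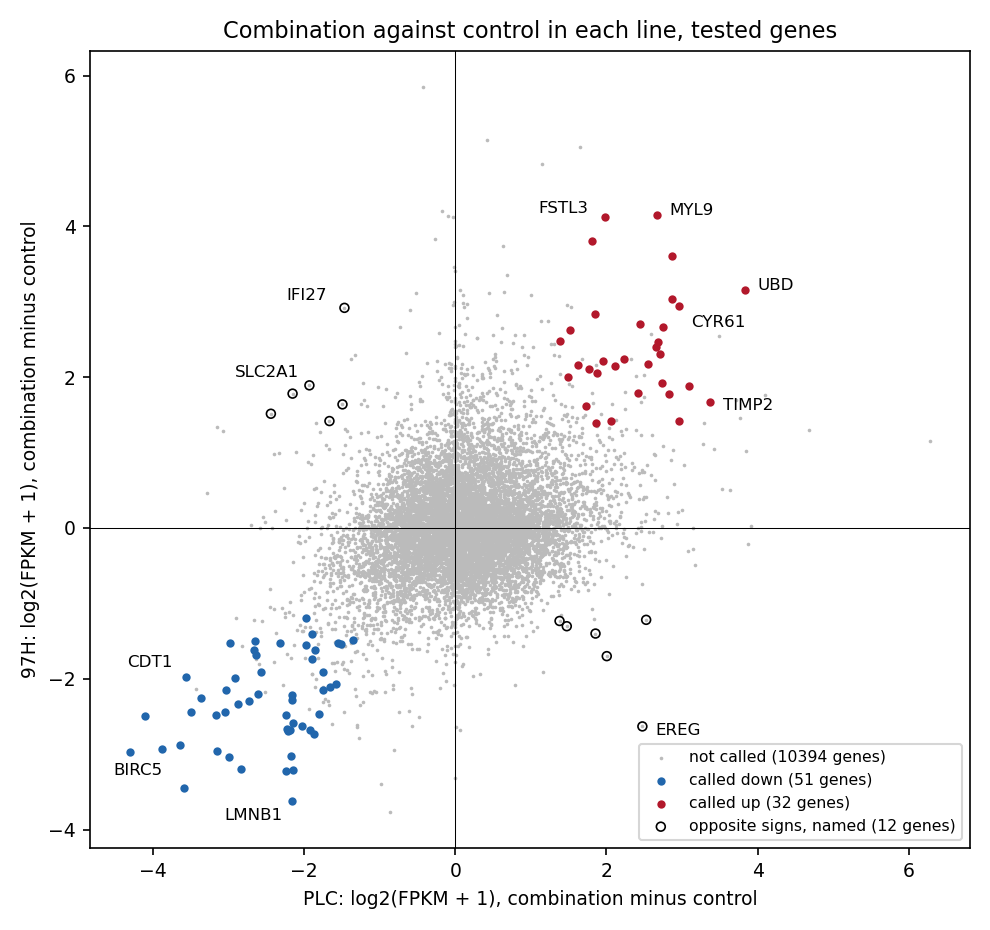
Log2(FPKM + 1) difference between combination and control in PLC (horizontal) and 97H (vertical), 1 point per tested gene. The 51 genes called down sit at the lower left and the 32 called up at the upper right, while the 12 circled genes lie where the lines go opposite ways.

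Promoter sequences of the genes that fell are shown first because several carry the elements named above close to the start of the gene. The stretches come from RefSeq promoters on GRCh38.p14, which cover 250 bases before each annotated start. PLK1 (the polo-like mitotic kinase, chr16:23678801-23678880, plus strand), CCNB2 (cyclin B2, chr15:59104896-59105137, plus strand), CENPA (the centromeric histone, chr2:26785809-26786055, plus strand) and CDCA8 (borealin, chr1:37692386-37692515, plus strand) are mitotic genes with CHR letters. GINS2 (a replicative helicase subunit, chr16:85688963-85689127, minus strand), PCNA (the sliding clamp, chr20:5126628-5126789, minus strand) and MCM7 (a helicase subunit, chr7:100101398-100101599, minus strand) are replication genes with E2F letters. They are examples, and other genes that fell lack these letters there. MYBL2, CCNA2 and CCNB1 hold no CHR letters, and CDC45, ORC1 and MCM2 hold no E2F letters. CTGF (a matrix-associated YAP target, chr6:131951412-131951556, minus strand) is a gene that rose. Each reads 5′ to 3′ along the gene, and capitals mark CHR (TTTGAA), the CCAAT box (CCAAT or ATTGG), E2F (TTTCCCGC, GCGGGAAA or TTTCGCGC) and TEAD (GGAATG) letters.
PLK1: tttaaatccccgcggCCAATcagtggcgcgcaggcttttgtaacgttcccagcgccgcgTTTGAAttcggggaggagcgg
CCNB2: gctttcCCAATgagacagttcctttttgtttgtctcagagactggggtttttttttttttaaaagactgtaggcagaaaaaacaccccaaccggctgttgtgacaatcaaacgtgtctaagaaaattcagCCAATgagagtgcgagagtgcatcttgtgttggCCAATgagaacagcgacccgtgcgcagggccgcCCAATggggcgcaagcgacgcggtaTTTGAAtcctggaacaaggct
CENPA: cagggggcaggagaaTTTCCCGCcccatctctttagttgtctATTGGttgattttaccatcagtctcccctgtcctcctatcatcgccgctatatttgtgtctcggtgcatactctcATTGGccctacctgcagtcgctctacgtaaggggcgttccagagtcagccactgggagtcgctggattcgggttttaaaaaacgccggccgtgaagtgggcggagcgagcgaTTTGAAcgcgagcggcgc
CDCA8: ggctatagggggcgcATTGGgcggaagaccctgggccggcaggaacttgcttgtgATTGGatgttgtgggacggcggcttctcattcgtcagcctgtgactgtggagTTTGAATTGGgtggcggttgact
GINS2: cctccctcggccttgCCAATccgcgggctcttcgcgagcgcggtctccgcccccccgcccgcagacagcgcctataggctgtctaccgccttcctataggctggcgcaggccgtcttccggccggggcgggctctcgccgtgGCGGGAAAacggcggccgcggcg
PCNA: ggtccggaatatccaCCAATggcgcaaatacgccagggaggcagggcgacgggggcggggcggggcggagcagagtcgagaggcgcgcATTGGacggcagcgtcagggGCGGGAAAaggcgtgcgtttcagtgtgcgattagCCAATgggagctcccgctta
MCM7: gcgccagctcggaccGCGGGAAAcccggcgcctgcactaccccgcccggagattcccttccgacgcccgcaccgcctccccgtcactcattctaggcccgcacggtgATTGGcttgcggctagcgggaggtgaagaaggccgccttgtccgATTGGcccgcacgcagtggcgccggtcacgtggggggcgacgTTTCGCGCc
CTGF: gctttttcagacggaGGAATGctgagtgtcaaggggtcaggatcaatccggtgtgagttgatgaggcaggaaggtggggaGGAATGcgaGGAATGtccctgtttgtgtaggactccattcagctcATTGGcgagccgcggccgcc
In the 4 mitotic promoters the CHR letters began 29, 29, 18 and 23 bases before the start in PLK1, CCNB2, CENPA and CDCA8, each with at least 1 CCAAT box upstream. In CDCA8 the CHR letters overlap a further ATTGG by 1 base. E2F letters stood 31 bases before the start in GINS2, 59 in PCNA, and 187 and 9 in MCM7, and the 3 TEAD matches of CTGF stood 169, 104 and 95 bases before its start.

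The same letters were counted over all promoters that could be matched, on both strands: 43 of the 51 genes that fell, 25 of the 32 that rose and 8622 of all tested genes. E2F letters (TTTCCCGC, TTTGGCGC or TTTCGCGC) were in 9 of 43 promoters of genes that fell (20.9%), in 1 of 25 of genes that rose (4.0%) and in 4.08% of all. CHR letters (TTTGAA or TTCGAA) were in 11 of 43 (25.6%), in 3 of 25 (12.0%) and in 9.29% of all. E2F or CHR letters were in 41.9% of the promoters of genes that fell against 12.9% of all. A CCAAT box was in 60.5%, 40.0% and 35.6%, and CHR together with a CCAAT box in 20.9%, 12.0% and 4.0%. TEAD letters (GGAATG) went the other way, at 2.33% of the genes that fell, 20.0% of those that rose (CTGF, UBD, IL32, GRN and DDAH2) and 9.42% of all. AP-1 letters (TGACTCA or TGAGTCA) were in 0 of 43, 1 of 25 and 2.34%, and the lysosomal CLEAR letters (TCACGTGA) in 1 of 43, 0 of 25 and 1.93%. A match is a description of the letters and not a measured binding site.

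The regulators and engines of mitotic entry held the densest group of changes. Of 26 tested genes for mitotic kinases, cyclins and factors, 12 fell (46.2%, against 0.487% of all genes) and none rose, with a median of -1.98 against 0.071 over all tested genes (PLC -1.86, 97H -2.1). MYBL2, the transcription factor that drives this wave, went in PLC from 159.6 to 9.86 FPKM, and in 97H from 76.6 to 9.13. FOXM1, its partner, went in PLC from 40.4 to 2.65 FPKM, and in 97H from 57.9 to 9.87, log2 differences of -3.41 (SE 0.36, adjusted p = 0.0176) and -2.97. In both genes each combination library lay far below each control library. PLK1, the kinase they activate, went in PLC from 103 to 7.27 FPKM, and in 97H from 104 to 13.3, and its promoter is among those printed above. The cyclins that pair with the mitotic kinase also fell. CCNA2 went in PLC from 19.9 to 1.61 FPKM, and in 97H from 24.4 to 2.11, with nearly the same log2 difference in both lines (-3.0 and -3.03). CCNB1 went in PLC from 84 to 17.9 FPKM, and in 97H from 83.2 to 16.3. CCNB2 went in PLC from 28.04 to 5.202 FPKM, and in 97H from 57.9 to 8.31. CCNF, the F-box cyclin, stood at -2.61. In bulk RNA, fewer cells in a phase of the cycle and less RNA of these genes per cell cannot be told apart.

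Genes of the machinery that ends mitosis fell as well. UBE2C, the ubiquitin-conjugating enzyme that starts chains for the anaphase-promoting complex, went in PLC from 41.1 to 4.103 FPKM, and in 97H from 36.2 to 5.83. UBE2S, which extends those chains, went in PLC from 131 to 35.4 FPKM, and in 97H from 227 to 73.2. PTTG1 (securin) and ESPL1 (separase, the cohesin protease that securin holds back) had log2 differences of -2.3 and -2.51. ESPL1 was low in the controls already and went in PLC from 15.3 to 1.46 FPKM, and in 97H from 8.26 to 0.879. GTSE1, a microtubule-bound protein of G2 cells, was at -2.43. The member at the other end of the list was WEE1, the kinase that delays mitotic entry. It read 8.43 FPKM in the control and 31.5 FPKM in the combination in PLC, 7.59 and 9.204 FPKM in 97H, and was not called (1.02, adjusted p = 0.437).

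The gene with the lowest log2 difference of all tested genes was BIRC5 (survivin, chromosome 17, 78214186 to 78225636 in GRCh38), the subunit that brings the chromosomal passenger complex to the centromere. It went in PLC from 90.4 to 3.63 FPKM, and in 97H from 82.4 to 9.59, a difference of -3.64 (SE 0.37, adjusted p = 0.0176). The other subunits that fell were the kinase AURKB, in PLC from 26.3 to 2.34 FPKM, and in 97H from 14.2 to 2.44, and CDCA8, in PLC from 25.8 to 4.66 FPKM, and in 97H from 27.2 to 4.06. CENPA, which marks the centromere, went in PLC from 14.6 to 0.751 FPKM, and in 97H from 24.2 to 2.23. The PLC combination library lay under 1 FPKM, so its log2 difference of -3.06 is held down by the pseudocount. CDCA5 (sororin, which protects sister chromatid cohesion) was at -2.13 and CDCA3 at -2.82. In all, 6 of 33 tested genes of the centromere, kinetochore and passenger complex fell (18.2%) and none rose. The median was -1.61, 30 members were lower in both lines (90.9%, against 24.2% of all tested genes) and 21 by at least 1 log2 unit in both. The member nearest to 0 was DSN1 at -0.16.

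Spindle genes lay lower in 97H than in PLC at the median. Of 34 tested genes for kinesins, the spindle and condensin, 7 fell (20.6%) and none rose, and the medians of PLC and 97H were -0.98 and -1.9; the difference between the lines was not tested. KIF2C, a kinesin that takes microtubules apart, went in PLC from 18.1 to 1.67 FPKM, and in 97H from 22.95 to 1.62. KIF20A, which acts in cytokinesis, went in PLC from 8.22 to 0.955 FPKM, and in 97H from 14.3 to 0.641, and both of its combination libraries read under 1 FPKM. KIFC1, a minus-end kinesin that bundles poles, went in PLC from 24.2 to 4.59 FPKM, and in 97H from 32.98 to 3.19. KIF18B, TROAP and TACC3, all spindle proteins, were at -2.33, -2.41 and -1.95. TUBA1B, an alpha-tubulin and by far the most abundant of these transcripts, went in PLC from 810.3 to 283 FPKM, and in 97H from 976 to 335. Of all genes that fell, it differed least between the lines (-1.52 in PLC and -1.54 in 97H). Reads of near-identical tubulin copies cannot be assigned to it with certainty.

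At replication origins the fall reached from licensing to the fork. Of 41 tested genes, 8 fell (19.5%) and none rose, 36 were lower in both lines (87.8%, against 24.2% of all tested genes) and 23 by at least 1 log2 unit in both, with medians of -1.18 in PLC and -1.34 in 97H. ORC1, the origin recognition subunit, went in PLC from 8.86 to 1.197 FPKM, and in 97H from 9.26 to 1.22. CDT1, which loads the helicase onto origins, went in PLC from 49.5 to 3.26 FPKM, and in 97H from 25.8 to 5.78. Its log2 difference was -3.57 in PLC and -1.98 in 97H, and its adjusted p of 0.0476 was close to the threshold. Of the helicase ring, MCM7 went in PLC from 112 to 16.9 FPKM, and in 97H from 207 to 72.5, and MCM4 and MCM2 were at -1.89 and -1.76. Factors that switch the ring on fell too. GINS2 went in PLC from 40.7 to 3.03 FPKM, and in 97H from 27.97 to 5.05, and CDC45 in PLC from 11.2 to 1.61 FPKM, and in 97H from 13.4 to 1.22. PCNA went in PLC from 81.1 to 12.8 FPKM, and in 97H from 118 to 30.6, so that the 97H combination library kept more of it than the PLC one. The highest member was RPA1, a single-stranded DNA binding subunit, at 0.09, with 0.54 in PLC and -0.35 in 97H.

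Enzymes that make the building blocks of DNA were among the lowest values of the whole comparison. RRM2, the regulated subunit of ribonucleotide reductase, went in PLC from 26.96 to 1.31 FPKM, and in 97H from 36.2 to 2.41, a log2 difference of -3.52 (SE 0.40, adjusted p = 0.0198). TYMS, which makes thymidylate, went in PLC from 107 to 5.25 FPKM, and in 97H from 43.1 to 6.804. TK1, which salvages thymidine, went in PLC from 61.2 to 8.99 FPKM, and in 97H from 81.2 to 24.5. IMPDH2, the entry to guanine nucleotide synthesis, started high and went in PLC from 206 to 60.3 FPKM, and in 97H from 75.6 to 19.4. These 4 of 21 tested genes of nucleotide supply fell (19.0%), none rose, and the list median was -0.90, lying nearer to 0 than those 4. TYMS shares sequence positions with ENOSF1 on the opposite strand, and the strand setting of the counting is not given in the sources used here. Of the 83 genes, 18 overlap a coding gene on the opposite strand and 7 on the same strand.

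Repair genes of the same phase lay lower without a single call. None of 22 tested genes of homologous recombination and Fanconi repair passed after limma's adjustment (14 had an unadjusted p under 0.05), but 19 were lower in both lines (86.4%, against 24.2% of all) and 11 by at least 1 log2 unit in both, with a median of -1.12. MND1, a recombinase accessory factor, read 7.18 and 0.318 FPKM in control and combination in PLC, and 7.43 and 1.51 FPKM in 97H (adjusted p = 0.0876). RAD54L, UBE2T and EXO1 were at -1.67, -1.64 and -1.77. Of 24 genes of chromatin assembly and the nuclear lamina, 3 fell (12.5%, against 0.487% of all tested genes). LMNB1 (lamin B1, of the inner nuclear lamina) went in PLC from 10.3 to 1.52 FPKM, and in 97H from 25.1 to 1.12, a log2 difference of -2.17 in PLC and -3.62 in 97H. ASF1B, the histone chaperone of dividing cells, went in PLC from 60.6 to 7.17 FPKM, and in 97H from 32.2 to 7.39. SSRP1, a subunit of the FACT chaperone, had nearly equal differences of -1.56 and -1.52. The variant histone gene H2AFX was at -1.73 and not called (adjusted p = 0.0738).

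**Figure D2:**
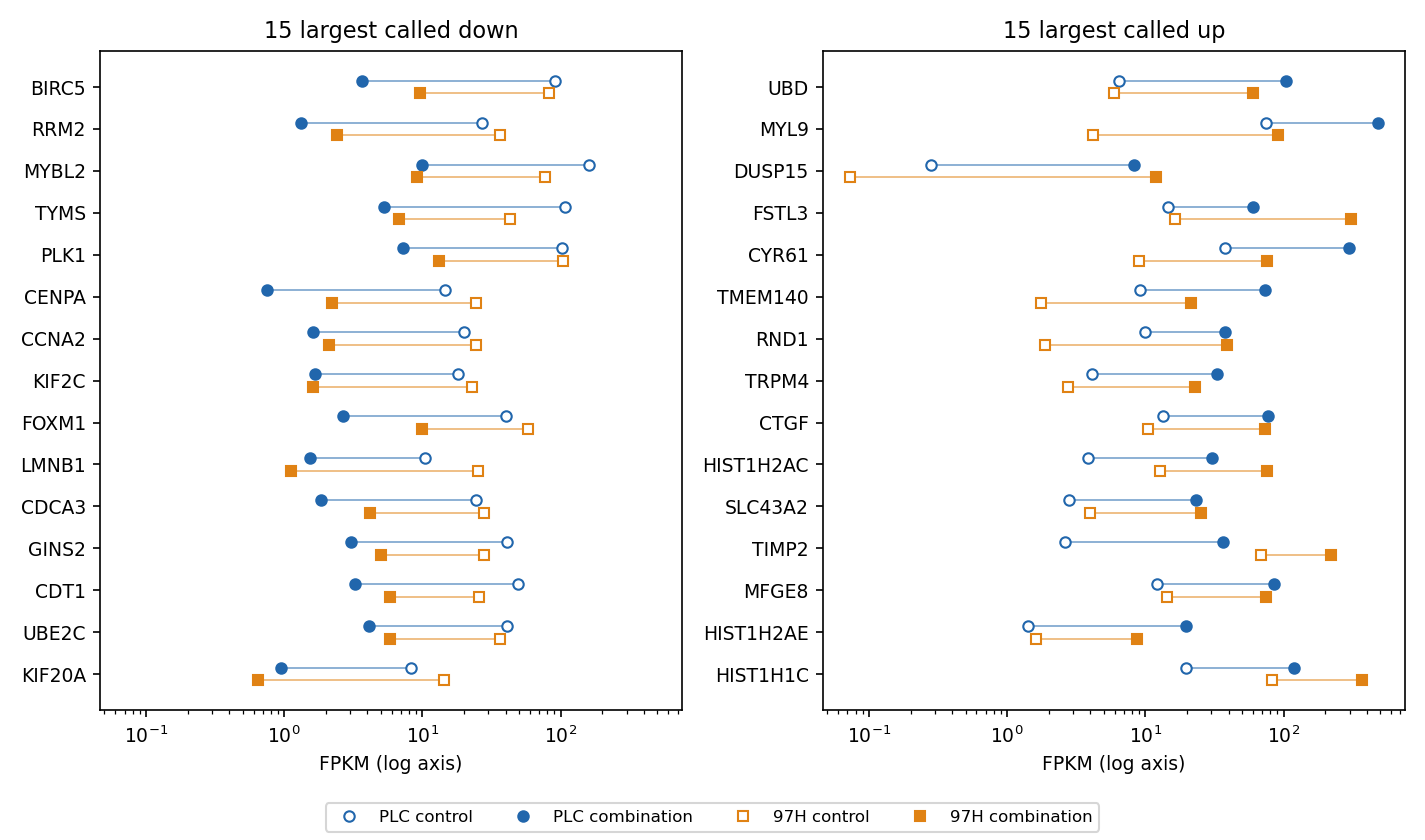
FPKM on a log axis of the 15 genes called down (left) and the 15 called up (right) with the largest log2 differences, with open symbols for control, filled symbols for combination, circles for PLC and squares for 97H, 1 library per symbol. Every filled symbol lies on the same side of its open symbol in both lines, from BIRC5 (90.4 to 3.63 FPKM in PLC) to HIST1H1C.

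The genes of the drug targets did not pass, while inhibitors of the cell-cycle kinases split. CDK4 read 214 and 103 FPKM in control and combination in PLC, and 208 and 167 FPKM in 97H (-0.68, adjusted p = 0.39). CDK6 was low in these lines, at 0.544 and 1.44 FPKM in PLC and 2.15 and 1.901 FPKM in 97H. XPO1 read 8.65 and 18.1 FPKM in PLC and 15.9 and 21.7 FPKM in 97H (0.71, adjusted p = 0.713). RB1, whose product is the main substrate of CDK4 and CDK6, was also low. It read 1.24 and 1.61 FPKM in PLC, and 0.281 and 0.479 FPKM in 97H, where all 4 libraries lay under 1 FPKM. CDKN1A (p21) rose, in PLC from 4.19 to 39.4 FPKM, and in 97H from 26.02 to 71.3, by 2.96 in PLC and 1.42 in 97H on the log2 scale (adjusted p = 0.0461 over both). CDKN2C (p18, an inhibitor of CDK4 and CDK6) fell instead, in PLC from 22.5 to 4.28 FPKM, and in 97H from 14.3 to 0.661. CDKN2B (p15, of the same family), named after its values were seen, read 0.145 and 4.75 FPKM in PLC and 4.95 and 27.02 FPKM in 97H without passing (2.28, adjusted p = 0.0918). Of the E2F family, E2F2 fell, in PLC from 8.995 to 0.574 FPKM, and in 97H from 2.42 to 0.118, and E2F8 was at -1.33 (adjusted p = 0.0561). In all, 3 of 23 genes of this axis changed (13.0%, against 0.792% of all tested genes), 2 down and 1 up.

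Outside the cell cycle few genes fell. Of 32 genes of ribosome biogenesis, FBL (fibrillarin, which methylates ribosomal RNA) alone fell, in PLC from 209 to 55.2 FPKM, and in 97H from 259 to 77.2. The medians of PLC and 97H were -0.23 and -0.98, and 14 of the 32 went opposite ways in the lines (43.8%, near the 44.8% of all tested genes). PA2G4, BOP1 and NOP16 were at -1.21, -1.58 and -1.04 with adjusted p-values of 0.118, 0.164 and 0.214. In the lists used, 8 of the 51 genes that fell have no place. CDCA7 (a partner of the chromatin remodeller HELLS) and FAM83D (which brings a casein kinase to the spindle) were at -2.37 and -2.31, and PIF1, a DNA helicase, went in PLC from 3.41 to 0.121 FPKM, and in 97H from 1.33 to 0.0205. NPM3, a nucleolar histone chaperone, went in PLC from 95.5 to 11.2 FPKM, and in 97H from 23.2 to 7.41. PHB2, a prohibitin of the inner mitochondrial membrane, went in PLC from 231 to 45.3 FPKM, and in 97H from 123 to 41.9. PTMA (prothymosin alpha) went in PLC from 269 to 71.2 FPKM, and in 97H from 384 to 145, and FABP5, which binds fatty acids, in PLC from 121 to 39.8 FPKM, and in 97H from 51.7 to 11.6; both have close copies in the genome that can share reads. TNFRSF6B, a decoy receptor for death ligands, had the smallest difference of the genes that fell (-1.43) and lies within a longer transcript of the same strand shared with RTEL1. It reached the mean of 1 FPKM needed for testing only through the control libraries, so the filter itself favoured a fall.

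**Figure D3:**
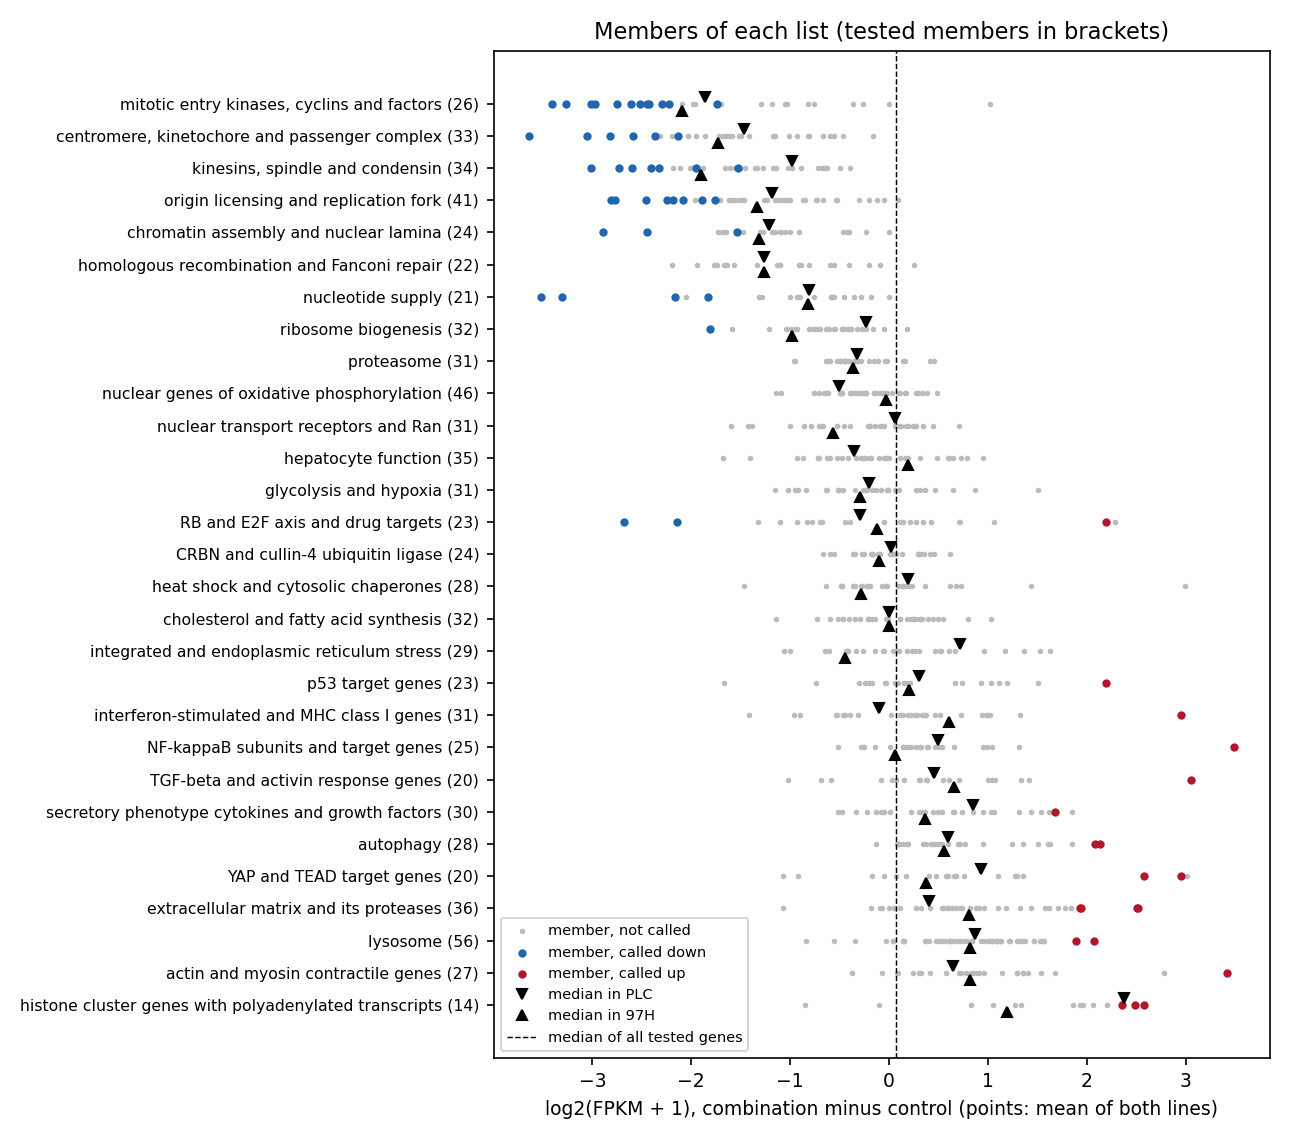
Log2(FPKM + 1) difference of each tested member of 29 gene lists, as the mean of both lines (points), with the list median in PLC and in 97H (triangles) and the median of all tested genes (dashed line). The lists of mitosis and replication stand on the lower side in both lines and the histone, actin, lysosome and matrix lists on the upper side, while the stress, interferon and nuclear transport lists have medians of opposite sign in the lines.

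Histone transcripts stood on the other side from the replication genes. The canonical histone genes are transcribed in S phase without a polyadenylated tail, but some also make polyadenylated transcripts. The list was drawn up mainly from such genes, and its member H1F0 is not one of them. Of 14 tested, 3 rose (21.4%, against 0.305% of all genes), none fell, 10 were higher in both lines and 9 by at least 1 log2 unit in both. The median was 2.37 in PLC and 1.19 in 97H. HIST1H1C, a linker histone, went in PLC from 19.5 to 119 FPKM, and in 97H from 81.9 to 372, a log2 difference of 2.36 (SE 0.30, adjusted p = 0.0228). The histone H2A gene HIST1H2AC went in PLC from 3.88 to 30.2 FPKM, and in 97H from 12.8 to 75.4. Another H2A gene, HIST1H2AE, went in PLC from 1.41 to 19.6 FPKM, and in 97H from 1.62 to 8.67. These 3 lie together at chromosome 6, 26055787 to 26056428, at chromosome 6, 26124145 to 26139116 and at chromosome 6, 26216975 to 26217483 (GRCh38), in the large histone cluster. HIST1H2BN, an H2B gene outside the list, also rose. It was listed at 0 FPKM in the PLC control and read 6.11 FPKM in the combination, and it went from 0.182 to 3.06 FPKM in 97H. HIST1H3D was at 2.2 (adjusted p = 0.0569). Near-identical histone genes can share reads, so the single gene behind each value is uncertain, and the only member lower in both lines was H1F0 (-0.85).

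Genes of the contractile cytoskeleton rose in part. MYL9, a regulatory light chain of non-muscle and smooth muscle myosin (chromosome 20, 36541484 to 36551447), went in PLC from 75.1 to 484 FPKM, and in 97H from 4.205 to 91.8, log2 differences of 2.67 and 4.16 and 3.41 over both (SE 0.35, adjusted p = 0.0176). It was the only call among 27 actin and myosin genes, of which 21 were higher in both lines (77.8%, against 29.6% of all; median 0.85). ZYX (zyxin, of focal adhesions), CSRP1 and TPM1 (a tropomyosin) were at 1.54, 1.4 and 1.68, with adjusted p-values of 0.0876, 0.0876 and 0.164. GSN (gelsolin, which severs actin filaments), outside that list, rose almost equally in the lines, in PLC from 3.39 to 19.6 FPKM, and in 97H from 7.57 to 39.5. RND1, which opposes stress fibres, went in PLC from 10.01 to 37.5 FPKM, and in 97H from 1.87 to 39.02. Of 20 tested YAP and TEAD target genes, CYR61 and CTGF rose (10%, against 0.305% of all tested genes), both secreted matrix proteins. CYR61 went in PLC from 37.6 to 299 FPKM, and in 97H from 8.97 to 75.6, with log2 differences of 2.96 and 2.94. CTGF, whose promoter is printed above, went in PLC from 13.4 to 77.5 FPKM, and in 97H from 10.4 to 73.5. The other members were mixed: AMOTL2, an inhibitor of YAP that YAP induces, was at 1.36 (adjusted p = 0.107), ANKRD1 at 3.01 (adjusted p = 0.214), and AXL, the lowest member, at -1.07.

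Matrix proteins and the enzymes that act on them gave 4 calls among 36 tested genes, all up (11.1%, against 0.305% of all tested genes). The list medians were 0.40 in PLC and 0.81 in 97H. TIMP2, an inhibitor of metalloproteinases, started far apart in the lines and went in PLC from 2.62 to 36.5 FPKM, and in 97H from 68.4 to 219. MMP14, a membrane-bound metalloproteinase, went in PLC from 60.5 to 160.4 FPKM, and in 97H from 18.3 to 107. MFGE8, a secreted protein that bridges dying cells and phagocytes, went in PLC from 12.2 to 85.4 FPKM, and in 97H from 14.3 to 74.8, and SDC4, a syndecan of focal adhesions, in PLC from 68.2 to 234 FPKM, and in 97H from 41.6 to 182. Of these, SDC4 had the smallest SE (0.25, adjusted p = 0.0228). Among 30 cytokines and growth factors of the secretory phenotype, MDK (midkine, a heparin-binding growth factor) was the only call (3.33%, against 0.305% of all tested genes). It rose in PLC from 246 to 821 FPKM, and in 97H from 238 to 733. HBEGF, CXCL1 and ICAM1 were at 1.54, 1.32 and 0.95 with adjusted p-values of 0.18, 0.258 and 0.287, and 11 of the 30 went opposite ways in the lines (36.7%, against 44.8% of all tested genes). FSTL3, a secreted antagonist of activin, went in PLC from 14.6 to 60.5 FPKM, and in 97H from 16.5 to 305. Its log2 difference was 1.98 in PLC and 4.13 in 97H. It was the only call among 20 TGF-beta and activin response genes (5%, against 0.305% of all tested genes). In that list ID1, an inhibitor of differentiation factors, was lowest at -1.02.

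Lysosomal genes were mostly higher, with few single calls. Of 56 tested, 43 were higher in both lines (76.8%, against 29.6% of all genes) and 12 by at least 1 log2 unit in both, and the medians were 0.87 and 0.82. GRN (progranulin, a lysosomal and secreted glycoprotein) rose, in PLC from 151 to 467 FPKM, and in 97H from 72.3 to 327. ATP6V0D2, a subunit of the proton pump, went in PLC from 0.0303 to 1.94 FPKM, and in 97H from 0.0558 to 5.53, starting under 1 FPKM in both controls. It reached the mean of 1 FPKM needed for testing only through the combination libraries, so the filter itself favoured a rise. GLMP, a lysosomal membrane glycoprotein, had nearly the same difference in both lines (1.26 and 1.38) and did not pass (adjusted p = 0.0687). NPC2, which moves cholesterol out of the lysosome, was at 1.36 (adjusted p = 0.0876). The lowest of the 56 was GUSB at -0.84. Of 28 autophagy genes 2 rose (7.14%, against 0.305% of all tested genes), none was lower in both lines, and the median was 0.52. TP53INP2, which brings LC3 proteins to the phagophore, went in PLC from 25.5 to 114 FPKM, and in 97H from 2.09 to 12.7. GABARAPL1, a protein of the LC3 family itself, went in PLC from 17.5 to 70.7 FPKM, and in 97H from 6.22 to 32.5. MAP1LC3B read 49.96 and 176 FPKM in PLC and 32.3 and 61.7 FPKM in 97H (adjusted p = 0.096), and the autophagy receptor OPTN was at 1.62.

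Targets of p53, NF-kappaB and interferon each gave 1 call, up. That was 4.35%, 4% and 3.23% of the tested members, against 0.305% of all tested genes, and each share rests on 1 gene. CDKN1A was the call among 23 p53 target genes, whose median was 0.15. That median was -0.02 without the 97H combination, 0.07 without the PLC control, 0.37 without the PLC combination, 0.41 without the 97H control and 0.03 with quantile normalization. AEN, a p53-induced nuclease, was lowest at -1.66 (adjusted p = 0.104), DDB2 stood at 1.19 and TP53INP1 at 1.5, so the list had members on both sides. UBD (FAT10, a ubiquitin-like modifier induced by inflammatory cytokines) was the call among 25 NF-kappaB genes and the highest log2 difference of all genes that rose. It went in PLC from 6.397 to 104 FPKM, and in 97H from 5.93 to 60.5, a difference of 3.49 (SE 0.51, adjusted p = 0.0343), and overlaps GABBR1 on the same strand. CXCL1, ICAM1 and NFKBIZ were at 1.32, 0.95 and 1.04, and the medians of PLC and 97H were 0.49 and 0.06. TMEM140 rose, in PLC from 9.098 to 72.9 FPKM, and in 97H from 1.76 to 21.6, as the only call among 31 interferon-stimulated and MHC class I genes. The class I genes HLA-E and HLA-B were at 1.0 and 1.32, HLA-B mostly through 97H (0.52 in PLC and 2.12 in 97H). TAP2, the peptide transporter subunit, was lowest at -1.42 (adjusted p = 0.206). IL32, a cytokine in no list, went in PLC from 59.2 to 319.9 FPKM, and in 97H from 31.1 to 109.6.

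The remaining genes that rose belong to no list used. DUSP15, a phosphatase gene close to silent in the controls, went in PLC from 0.283 to 8.34 FPKM, and in 97H from 0.0727 to 12.01. TRPM4, a calcium-activated cation channel, went in PLC from 4.08 to 33.1 FPKM, and in 97H from 2.74 to 22.8. SLC43A2, a transporter of neutral amino acids, went in PLC from 2.81 to 23.1 FPKM, and in 97H from 3.99 to 25.3, and SLC6A12, a transporter of betaine and GABA, in PLC from 0.417 to 4.89 FPKM, and in 97H from 0.184 to 2.16. SLC6A12 reached the mean of 1 FPKM needed for testing only through the combination libraries, so the filter itself favoured a rise. PPDPF was already abundant and went in PLC from 197 to 709 FPKM, and in 97H from 42.03 to 306. TUFT1 (tuftelin) was at 2.33 and FAM214B at 1.97. DDAH2, named for breaking down methylated arginine, went in PLC from 38.8 to 111 FPKM, and in 97H from 18.5 to 77.2. AGT (angiotensinogen, a hepatocyte product) differed widely between the lines in its level, in PLC from 381 to 1383 FPKM, and in 97H from 5.88 to 17.1, and had the smallest difference of the genes that rose (1.63).

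Several lists of basic cell functions had no member called, against 0.792% of all tested genes. At that share a list of this size will usually hold no call, so a count of 0 does not show that its genes held steady. Proteasome genes, which NRF1 and NRF2 induce under proteotoxic stress, had 0 of 31 called and a median of -0.40, with 20 lower in both lines (64.5%, against 24.2% of all) and PSMC3 at -0.95 (adjusted p = 0.198). By limma without adjustment, 1301 of all 10477 genes had a p under 0.05, among them 4 of the proteasome genes. Nuclear genes of oxidative phosphorylation had 0 of 46 (4 at an unadjusted p under 0.05), with ATP5MC1 and CYC1 at -1.14 and -1.09. Glycolysis and hypoxia genes had 0 of 31 (8 unadjusted). There ADM (adrenomedullin) was highest at 1.51 (adjusted p = 0.0861), and TPI1, GPI and GAPDH were at -1.16, -1.02 and -0.93. Of 24 genes of CRBN and the cullin-4 ubiquitin ligase none passed, and the members spanned -0.67 (COPS6) to 0.62 (DDA1), the narrowest range of the 29 lists (1 unadjusted). Among 31 nuclear transport receptors and Ran genes, with 0 called and 5 unadjusted, RCC1 (the exchange factor of Ran), KPNA2 (an importin alpha) and IPO4 were at -1.39, -1.6 and -1.42, with KPNA2 at -0.57 in PLC and -2.62 in 97H. Cholesterol and fatty acid synthesis had 0 of 32 (1 unadjusted), FADS1 being lowest at -1.15. Of 28 heat shock and chaperone genes, with 0 called and 4 unadjusted, FKBP4 was at -1.47 (adjusted p = 0.0738), CRYAB at 2.99 and HSPB8 at 1.44, and the list median of -0.03 was not stable in sign: it was 0.05 with quantile normalization, -0.55 without the PLC control, 0.25 without the 97H control, 0.09 without the PLC combination and -0.22 without the 97H combination. Stress genes of the integrated and endoplasmic reticulum responses had 0 of 29 called (6 unadjusted), with PPP1R15A, HERPUD1 and DDIT3 at 1.53, 1.17 and 1.62. Hepatocyte genes had 0 of 35 (1 unadjusted), with FOXA3 lowest at -1.68 (adjusted p = 0.18).

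The 83 genes were then set beside the same lines under each inhibitor alone. All treatments of a line share its control library, and the genes were chosen for their difference with the combination, so these values are a description without a test. The 51 genes that fell had a median of -0.65 under CDK4/6 inhibition, -0.54 under XPO1 inhibition and -2.37 under both. All 51 were on the lower side with each inhibitor in the mean of both lines, and in each line all 51 read lower under the combination than under either inhibitor. RRM2 read 26.96 FPKM in the control, 28.3 under CDK4/6 inhibition, 27.4 under XPO1 inhibition and 1.31 under both in PLC, and 36.2, 18.5, 19.1 and 2.41 FPKM in 97H. KIF2C read 18.1 FPKM in the control, 19.2 under CDK4/6 inhibition, 19.8 under XPO1 inhibition and 1.67 under both in PLC, and 22.95, 12.8, 12.7 and 1.62 FPKM in 97H. In PLC both genes read slightly above their control with either inhibitor alone and far below it with both. CDT1 read 49.5 FPKM in the control, 9.73 under CDK4/6 inhibition, 17.4 under XPO1 inhibition and 3.26 under both in PLC, and 25.8, 25.7, 19.4 and 5.78 FPKM in 97H. Its PLC libraries were lower with each inhibitor alone, while in 97H the library under CDK4/6 inhibition stood close to the control. PLK1 read 103 FPKM in the control, 37.7 under CDK4/6 inhibition, 50.7 under XPO1 inhibition and 7.27 under both in PLC, and 104, 87.2, 76.3 and 13.3 FPKM in 97H.

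The 32 genes that rose had a median of 1.12 under CDK4/6 inhibition, 1.27 under XPO1 inhibition and 2.33 under both. In both lines 29 of the 32 were higher with the combination than with either inhibitor, the exceptions being UBD, CTGF and MFGE8 in PLC. UBD read 6.397 FPKM in the control, 106 under CDK4/6 inhibition, 40.5 under XPO1 inhibition and 104 under both in PLC, and 5.93, 16.9, 17.8 and 60.5 FPKM in 97H. CTGF read 13.4 FPKM in the control, 45.5 under CDK4/6 inhibition, 106 under XPO1 inhibition and 77.5 under both in PLC, and 10.4, 15.5, 37.1 and 73.5 FPKM in 97H. Some genes were higher mainly with the XPO1 inhibitor. DUSP15 read 0.283 FPKM in the control, 0.327 under CDK4/6 inhibition, 3.67 under XPO1 inhibition and 8.34 under both in PLC, and 0.0727, 0.0311, 6.82 and 12.01 FPKM in 97H. SLC43A2 read 2.81 FPKM in the control, 2.13 under CDK4/6 inhibition, 8.34 under XPO1 inhibition and 23.1 under both in PLC, and 3.99, 8.47, 15.8 and 25.3 FPKM in 97H. In these lines others were higher mainly with the CDK4/6 inhibitor. HIST1H2AE read 1.41 FPKM in the control, 7.57 under CDK4/6 inhibition, 2.15 under XPO1 inhibition and 19.6 under both in PLC, and 1.62, 8.3, 2.36 and 8.67 FPKM in 97H. Huh7, outside the comparison, went the other way for HIST1H2AE, with 13.3 FPKM in the control and 1.88 under CDK4/6 inhibition. GRN was near its control in PLC under each inhibitor and higher only with both. It read 151 FPKM in the control, 163 under CDK4/6 inhibition, 161 under XPO1 inhibition and 467 under both in PLC, and 72.3, 173, 159 and 327 FPKM in 97H.

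**Figure D4:**
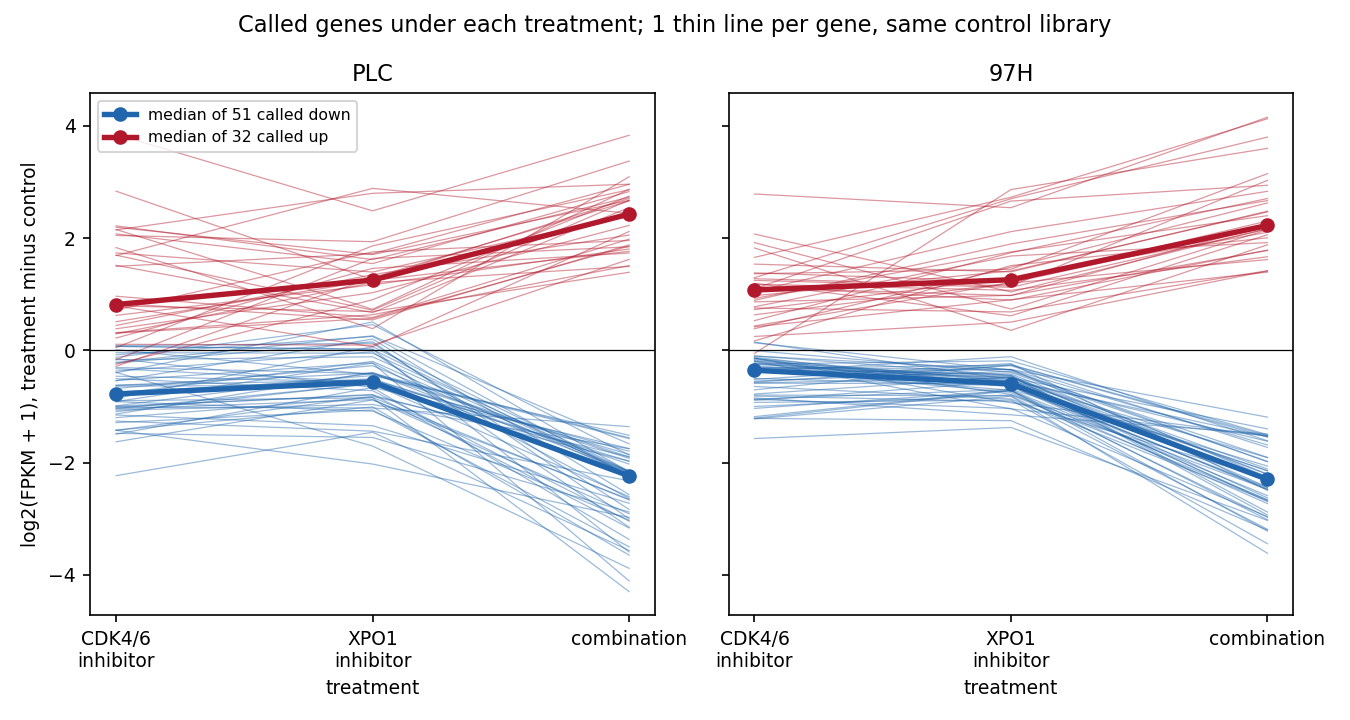
Log2(FPKM + 1) difference from the control of the same line with each inhibitor alone and with both, in PLC (left) and 97H (right), 1 thin line per gene and thick lines for the medians. The median of the 51 genes called down goes from -0.65 and -0.54 under the single inhibitors (mean of both lines) to -2.24 in PLC and -2.30 in 97H under the combination, and that of the 32 called up to 2.43 and 2.23.

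Some genes went strongly opposite ways in the lines and so dropped out of the shared result. By at least 1 log2 unit each way, 14 genes were higher in PLC and lower in 97H and 30 were lower in PLC and higher in 97H; with 1 library per line and treatment this was not tested. EREG (epiregulin, an EGF receptor ligand) read 2.36 and 17.7 FPKM in control and combination in PLC, and 16.8 and 1.86 FPKM in 97H. CTSL (cathepsin L, a lysosomal protease) read 18.8 and 78.5 FPKM in PLC and 365 and 111 FPKM in 97H, against the direction of most lysosomal genes there. FOSL1, an AP-1 subunit, read 0.996 and 10.5 FPKM in PLC and 65.8 and 27.7 FPKM in 97H. NRP1, DNAJB11 and LRP8 had the same pattern as these. Going the other way, SLC2A1 (the glucose transporter GLUT1) read 24.7 and 5.73 FPKM in PLC and 43.1 and 163 FPKM in 97H. The interferon-induced ISG15 read 516 and 94.2 FPKM in PLC and 37.9 and 110.1 FPKM in 97H, and IFI27 went with it from much lower levels. SERPINF1, RAB26 and NME3 complete this group. In PLC the libraries under the CDK4/6 and the XPO1 inhibitor alone already stood near the combination for several of these genes. They read 16.9 and 17.0 FPKM for EREG, 92.3 and 85.9 for DNAJB11 and 147 and 86.0 for ISG15, but 3.28 and 1.81 for FOSL1. All PLC differences use the same control library, and whether that library stood apart or each treatment moved these genes was not tested. The combination libraries of the lines lay closer together than their controls for ISG15 and SERPINF1, and further apart for SLC2A1.

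**Figure D5:**
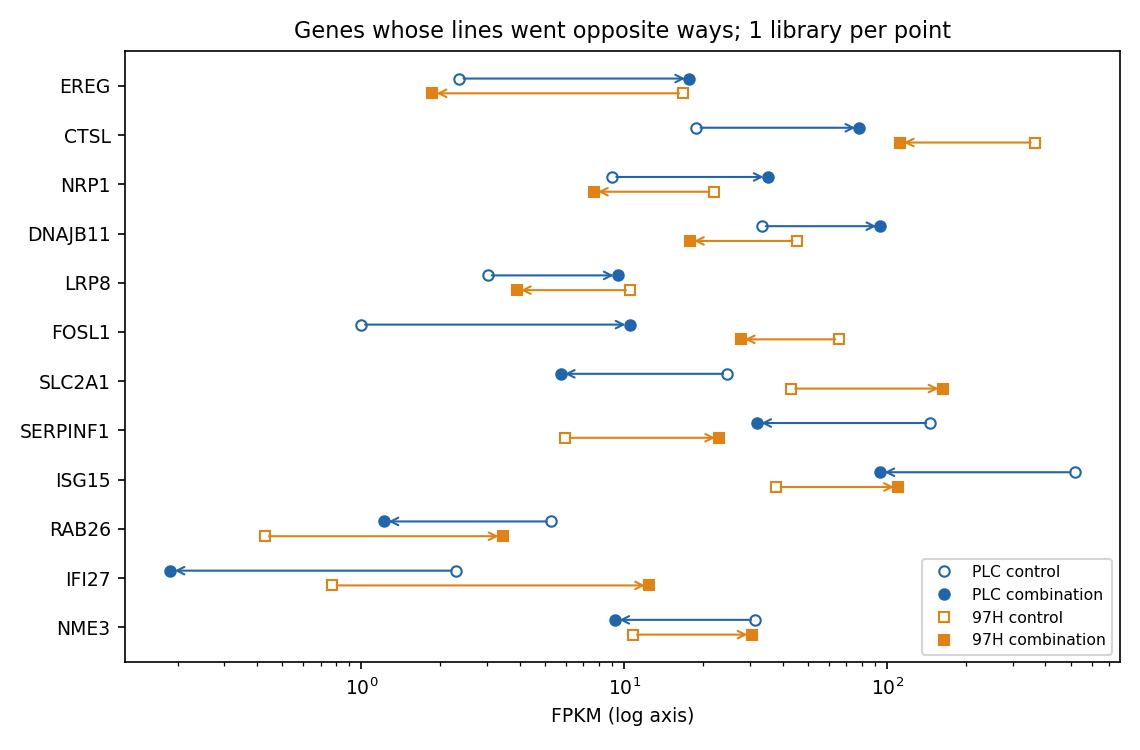
FPKM on a log axis of 12 genes whose lines went opposite ways, with arrows from control (open) to combination (filled), circles for PLC and squares for 97H, 1 library per symbol. EREG goes in PLC from 2.36 to 17.7 FPKM, and in 97H from 16.8 to 1.86, and SLC2A1 the other way.

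The labelled cell type was checked against its markers. All 11 liver epithelial markers averaged 1 FPKM or more over the 10 libraries, with the keratins KRT8 and KRT18 high in both lines. In 97H, APOB and EPCAM lay under 1 FPKM in control and combination and APOA1 in the control. The summed level of the 11 was 3783 FPKM in the PLC control, 4610 in the PLC combination, 2937 in the 97H control and 6826 in the 97H combination. Of 20 markers of other cell types 9 were tested, none was called and 8 of the 9 were higher in both lines. PTPRC (CD45, the general leukocyte marker) was at 0 in 3 of the 4 libraries and read 0.00832 FPKM in the 97H combination, and the T cell marker CD3E was at 0 in all 4. The 20 together summed to 43.0 and 228 FPKM in control and combination in PLC and to 542 and 789 FPKM in 97H. Most of the 97H sums came from the bile duct markers KRT7, KRT19 and SOX9. The summed level of the markers of blood, endothelium and stroma was 41.2 FPKM in the PLC control and 219 in its combination, and 56.4 and 116 FPKM in 97H. Much of this is CD68, a lysosomal protein, which read 22.7 and 127 FPKM in PLC and 48.5 and 81.1 FPKM in 97H. The part of these levels in the results was not tested. The sum of FPKM per library ran from 321388 to 377933 over the 10 libraries and the number of genes above 0 FPKM from 14033 to 15264. Across genes, the Pearson r of log2 values was 0.922 to 0.98 for libraries of the same line and 0.684 to 0.7996 for libraries of different lines, and no pair was identical. The lowest within a line were those of the PLC control, 0.922 to 0.927 with the treated PLC libraries. The treated PLC libraries had 0.948 to 0.977 among themselves. In 97H the control had 0.934 to 0.977 and the treated libraries 0.960 to 0.98. At 1 FPKM or more, 9090 genes stood in the PLC control and 9623 to 10154 in the treated PLC libraries. Whether the PLC control stood apart or each treatment moved the line was not tested.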

How the data were processed

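Per the labels' protocols, Trizol was used for RNA and a TruSeq RNA kit for the libraries. The submitters' processing notes name CASAVA 1.8.2, STAR 2.4.2g1, featureCounts of Subread and the GRCh38 build. Values are FPKM that the authors made and deposited for 20030 entries, and how FPKM followed from counts is not given in the sources used here. It keeps no counts, so the depth is unknown and no count model was run. In 27 entries a symbol turned into a date was restored from the number beside it.

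The test was limma 3.58.1 under R 4.3.3 (lmFit and eBayes with a variance trend, two-sided) on log2(FPKM + 1). It took in the 10477 genes whose mean over the 10 libraries reached 1 FPKM. The fit used the 8 libraries of PLC and 97H with cell line as a block, since same-line libraries come from 1 cell line (3 residual degrees of freedom). Adjustment was Benjamini-Hochberg over all tested genes. Within-line differences have no test. The fit was tested on simulated data. Positions, GC content and length came from GENCODE 29, matched for 97.1% of entries. Of the genes that changed, promoters of BIRC5, UBE2C, FOXM1, IMPDH2, MCM4, FAM83D, TROAP, FABP5, MYL9, CYR61, RND1, TIMP2, MDK, SLC6A12 and ATP6V0D2 were not matched.

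The comparison, the gene lists, the motifs and the genes named were chosen with earlier results of these data known. Named are genes that changed, with FPKM for the 15 in each direction with the largest differences and, chosen after their values were seen, for others; up to 4 members of a list with the smallest p; drug targets; and 6 genes in each opposite pattern. Members named as highest or lowest of a list were picked after their values were seen. Alternatives varied the pseudocount (0.1 or 0.5), filter, scaling, block, libraries, variance prior, and GC content and length trends.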

Additional observations from a re-analysis of the deposited data

Results flagged for a closer look

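The values here are differences between the effects in PLC and in 97H (PLC minus 97H, log2 scale), picked out because the lines went opposite ways. With 1 library per line and treatment, none of these differences was tested. Among the 6 genes higher in PLC and lower in 97H, the gap was 5.11 for EREG, 3.70 for CTSL, 3.26 for NRP1 (a co-receptor for semaphorins and VEGF), 2.78 for DNAJB11 (a chaperone of the endoplasmic reticulum), 2.61 for LRP8 (a lipoprotein receptor) and 3.74 for FOSL1. Among the 6 genes lower in PLC and higher in 97H it was -3.82 for SLC2A1, -3.94 for SERPINF1 (a secreted antiangiogenic serpin), -3.96 for ISG15, -3.13 for RAB26, -4.39 for IFI27 and -3.08 for NME3.

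For 7 lists the median had opposite signs in the lines. The gap of medians was 1.16 for the integrated and endoplasmic reticulum stress genes (0.72 in PLC, -0.44 in 97H), 0.63 for nuclear transport receptors and Ran, 0.47 for heat shock and cytosolic chaperones and 0.12 for CRBN and the cullin-4 ubiquitin ligase. It was -0.71 for interferon-stimulated and MHC class I genes (-0.10 and 0.61), -0.54 for hepatocyte function and -0.82 for the liver epithelial markers.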

How the results depend on the processing

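The 83 calls depend on the libraries and on how the spread is estimated. Leaving out each library in turn gave 0 to 184 calls: 0 if the control or the combination of PLC was dropped, 2 for the combination of 97H, 166 for the control of 97H (53 of them among the 83), and 158 and 184 for CDK4/6 inhibition in PLC and 97H. The library left alone in its treatment is then assumed to vary like the others. Without the cell line as a block (no pairing by line), 0 genes passed by limma, with 350 at an unadjusted p under 0.05. The count was 6 with no filter on low genes (none of them among the 83), 27 with a single prior variance, 140 with quantile normalization, 261 with all 10 libraries, 259 with only the 4 libraries of the comparison (140 up, 119 down) and 463 with GC content and length trends removed. The other settings gave 85 to 120 calls. None of the 83 genes changed sign in any setting, but this was nearly fixed by how they were chosen. Each had moved the same way by at least 1 log2 unit in both lines. A further 75 genes were followed over the settings, namely uncalled list members among the 4 with the smallest p of their list. Uncalled genes outside this set, among them those named for opposite signs in the lines, were not followed. Of the 75, COPS2 ran from -1.34 to 0.13 (without the PLC combination library) and EBP from -1.23 to 0.031 (without the PLC control) when a library was left out. The cause of these shifts was not tested. FPKM carry no read depth, so counting error could not be separated from the spread between libraries.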

Other observations

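Among genes that moved the same way in both lines without passing, 10 on each side had the largest log2 differences. They were ranked after their values were seen and are given as values. KRTAP3-1, a hair keratin-associated gene, had the highest log2 difference of all tested genes (3.72, adjusted p = 0.187), reading 2.02 and 234 FPKM in control and combination in PLC and 0.144 and 1.55 FPKM in 97H. KRT17, a keratin of stressed epithelium, read 0.0608 and 2.33 FPKM in PLC and 2.02 and 99.7 FPKM in 97H. TAGLN (transgelin, an actin-binding protein of smooth muscle) was high mainly in 97H, at 3.72 and 166 FPKM there and 1.45 and 2.28 FPKM in PLC. UGT1A1, which conjugates bilirubin in hepatocytes, read 12.5 and 230.2 FPKM in PLC and 10.6 and 38.3 FPKM in 97H (adjusted p = 0.118); transcripts of this locus share their later exons, whose reads cannot be assigned to 1 of them. STBD1, which tethers glycogen, was at 2.71, NEURL3 at 2.99, NGFR at 2.61 and ANXA3 at 2.58.

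On the lower side the 10 genes included several with roles in replication and mitosis. PCLAF, a PCNA-binding protein, read 16.3 and 0.595 FPKM in PLC and 22.7 and 4.38 FPKM in 97H (-2.79, adjusted p = 0.0876). HJURP, the chaperone of CENPA, differed in size between the lines, at -0.87 in PLC and -3.76 in 97H, and KIF4A had a like gap, at -0.98 and -3.4. The kinetochore genes SPC25 and NDC80 were at -2.35 and -2.2, and the primase gene PRIM1 at -2.19. TCF19, MND1, WDR76 and IQGAP3 ran from -2.19 to -2.13.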
